A study of Mus musculus with 208 samples.

Results

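The enterocyte brush border is the carpet of microvilli on the luminal face of the intestinal epithelium, and the genes described here encode 10 enzymes, receptors and a transporter that sit in it: Cubn, Amn, Lrp2, Lct, Sis, Alpi, Anpep, Mep1a, Slc5a1 and Dpp4. They were taken by name, as a readout of how mature the enterocytes were and of where along the gut the sample lay, from the table of F1 ileum, which lists 35799 genes. All 10 were in the table, and 9 of them were among the 14802 genes tested, that is, at 1 CPM (counts scaled to a common library total) or above in 3 or more of the 7 mice. The exception was Lrp2. The ileum samples are part of a study of 208 RNA-seq samples in 21 groups, which followed how growing up without microbes affects mice and their offspring. F1 GF×CR mice had a germ-free (GF) father and a conventionally raised (CR) mother, and F1 CR×CR mice had CR parents on both sides. All were wild-type C57BL/6 mice, and the offspring of both crosses were born to colonized mothers and housed with microbes. Mice were used at 8 weeks of age unless otherwise stated, both sexes were used, and the sex of each mouse is not given in the labels. Each library was made from poly(A) RNA of 1 cm of distal ileum, so epithelium, muscle wall and lymphoid tissue were sequenced together, and fewer enterocytes cannot be told apart from less RNA per enterocyte. There were 3 GF×CR mice, numbered 1 to 3, and 4 CR×CR mice, numbered 1, 2, 3 and 5.

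As background, enterocytes are born in the crypts, climb the villus and are shed at its tip, and they load their apical membrane with digestive enzymes on the way up. Disaccharidases and peptidases there finish the digestion of sugars and proteins, and transporters beside them take up the products. Which of them an enterocyte makes depends on its place along the gut and on age: lactase is a product of the proximal small intestine and of suckling animals, whereas the receptor for cobalamin (vitamin B12) bound to intrinsic factor is a product of the ileum. That receptor consists of cubilin, encoded by Cubn, and amnionless, encoded by Amn, which anchors cubilin in the membrane and brings it to the cell surface. In the kidney the receptor works together with megalin, encoded by Lrp2.

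The promoters of 4 members are shown because these genes carry the contrasts described below: Cubn and Amn, whose products form 1 receptor but whose levels parted, and Lct and Sis, disaccharidase genes of which Lct was near 0 in 6 of the 7 mice and Sis was not. Each run is the RefSeq promoter (GRCm38.p6) from 250 bases before to 50 bases after the transcription start, read 5′ to 3′ on the strand of the gene. Capitals mark AGATAA (bound by GATA factors), TTTATG (bound by CDX factors), CAAAGTCCA (bound by HNF4 factors) and GTTAAT (bound by HNF1 factors), each searched on both strands. The windows lie at chr2:13491827-13492126 (minus strand) for Cubn, chr12:111270846-111271145 (plus strand) for Amn, chr1:128328269-128328568 (minus strand) for Lct and chr3:72967814-72968113 (minus strand) for Sis.
Cubn: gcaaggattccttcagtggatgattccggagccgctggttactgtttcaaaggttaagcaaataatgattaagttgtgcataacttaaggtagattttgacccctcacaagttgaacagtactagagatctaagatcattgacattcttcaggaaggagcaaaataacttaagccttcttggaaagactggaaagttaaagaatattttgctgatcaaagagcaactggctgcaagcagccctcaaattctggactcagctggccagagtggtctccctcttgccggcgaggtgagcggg
Amn: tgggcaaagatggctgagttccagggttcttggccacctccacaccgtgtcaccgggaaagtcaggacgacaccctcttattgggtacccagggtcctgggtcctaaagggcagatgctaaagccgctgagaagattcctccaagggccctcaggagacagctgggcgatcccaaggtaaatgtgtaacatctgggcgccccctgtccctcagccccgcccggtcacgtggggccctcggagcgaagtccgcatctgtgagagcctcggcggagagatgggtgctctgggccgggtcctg
Lct: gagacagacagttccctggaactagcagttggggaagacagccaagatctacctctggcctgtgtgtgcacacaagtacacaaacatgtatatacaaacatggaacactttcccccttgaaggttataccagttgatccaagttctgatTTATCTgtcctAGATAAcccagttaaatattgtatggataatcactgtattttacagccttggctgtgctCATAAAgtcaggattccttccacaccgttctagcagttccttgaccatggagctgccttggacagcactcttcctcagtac
Sis: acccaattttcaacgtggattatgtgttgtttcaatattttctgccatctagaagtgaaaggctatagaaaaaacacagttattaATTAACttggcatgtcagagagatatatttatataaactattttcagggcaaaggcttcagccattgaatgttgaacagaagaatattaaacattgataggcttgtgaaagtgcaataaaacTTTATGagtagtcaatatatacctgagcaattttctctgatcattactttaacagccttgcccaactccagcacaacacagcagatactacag
The Lct promoter held AGATAA on both strands, with first bases 101 and 90 bases before the start, and the CDX letters 31 bases before it. The Sis promoter held the CDX letters 43 bases and the HNF1 letters 165 bases before the start. No marked letters overlapped in these windows, and the Cubn and Amn windows held none of the 4 motifs. Over all 10 members the GATA letters were in 2 promoters (Lct and Dpp4), the CDX letters in 4 (Lrp2, Lct, Sis and Mep1a), the HNF4 letters in 1 (Alpi) and the HNF1 letters in 1 (Sis). Among 32851 promoters of the same length the shares were 11.2% for GATA, 11.8% for CDX, 0.475% for HNF4 and 7.10% for HNF1. A match is a description of the letters and not evidence of binding.

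Of the receptors, Cubn showed the clearest difference between the crosses. It was at 673, 723 and 506 CPM in GF×CR mice 1, 2 and 3, and at 282, 285, 176 and 339 CPM in CR×CR mice 1, 2, 3 and 5. Every GF×CR mouse was above every CR×CR mouse. The group levels were 634 ± 114 CPM (SD, n = 3) and 270 ± 68.2 CPM (SD, n = 4), a ratio of means of 2.34. The log2 fold change on log2(CPM + 0.5) was 1.25 with a standard error of 0.25 (limma, unadjusted p = 0.000573, Benjamini-Hochberg adjusted p = 0.943 over all genes tested), which was the second smallest p of the table. An exact permutation test over the mice gave a two-sided p = 0.0571, the smallest that 35 splits of 3 against 4 mice allow. Cubn therefore passed the threshold the study used for small intestine (a log2 fold change larger than 1 in size at p below 0.05, unadjusted) and did not pass the adjusted test.

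No gene of the table passed the adjusted test: 0 of 14802, with 666 genes (4.5%) at an unadjusted p under 0.05 in limma. The study threshold was passed by 281 genes (1.9%), 122 higher (0.824%) and 159 lower (1.07%) in GF×CR mice. Taken relative to the epithelium list, 440 genes passed it, of which 89.1% were higher, against 43.4% of the 281. Of the 9 members tested, 1 passed it as higher, Cubn, and none as lower. Groups did not overlap, with GF×CR above, for 2 members, Cubn and Mep1a, against 2.73% of all genes tested in that direction and 5.6% in either direction. With the replicate number as a block, 727 genes passed the study threshold and 1 gene the adjusted test. That gene was Gm48128, named after its values were seen, and Cubn had a log2 fold change of 1.37 (adjusted p = 0.243, limma) in the same fit. CR×CR mouse 5 has no GF×CR mouse of its number, so it adds nothing to the fold changes of that fit. The members' fold changes were therefore the same as in the fit without CR×CR mouse 5, and the 2 alternatives are not separate checks of them.

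Amn, the partner of cubilin in the cobalamin receptor, differed less between the crosses than Cubn. Its levels were 198, 247 and 198 CPM in the GF×CR mice and 239, 167, 147 and 159 CPM in the CR×CR mice. The groups overlapped through CR×CR mouse 1, and the log2 fold change was 0.29 ± 0.21 (SE, unadjusted p = 0.205, limma). Without that mouse it was 0.43 ± 0.18 (SE, unadjusted p = 0.0391), and the other CR×CR mice, at 147 to 167 CPM, lay below all GF×CR mice. The ratio of Cubn to Amn within a mouse, 3.40, 2.92 and 2.56 in GF×CR against 1.18, 1.70, 1.19 and 2.13 in CR×CR mice, did not overlap between the groups. Against Vil1, which encodes villin, the actin-bundling protein of the microvillus core, Cubn stood at ratios of 0.247, 0.226 and 0.246 in the GF×CR mice and 0.0802, 0.127, 0.135 and 0.149 in the CR×CR mice. These ratios compare mice, not the levels of the genes with each other, since CPM values are not scaled to transcript length. Lrp2 was barely detected, at 0.335, 0 and 1.20 CPM in the GF×CR mice and 0.251, 0.632, 0.260 and 0.258 CPM in the CR×CR mice. The smallest step between values, which 1 read makes, was 0.386 CPM in the shallowest library, so no difference in Lrp2 was detectable at this depth.

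**Figure D1:**
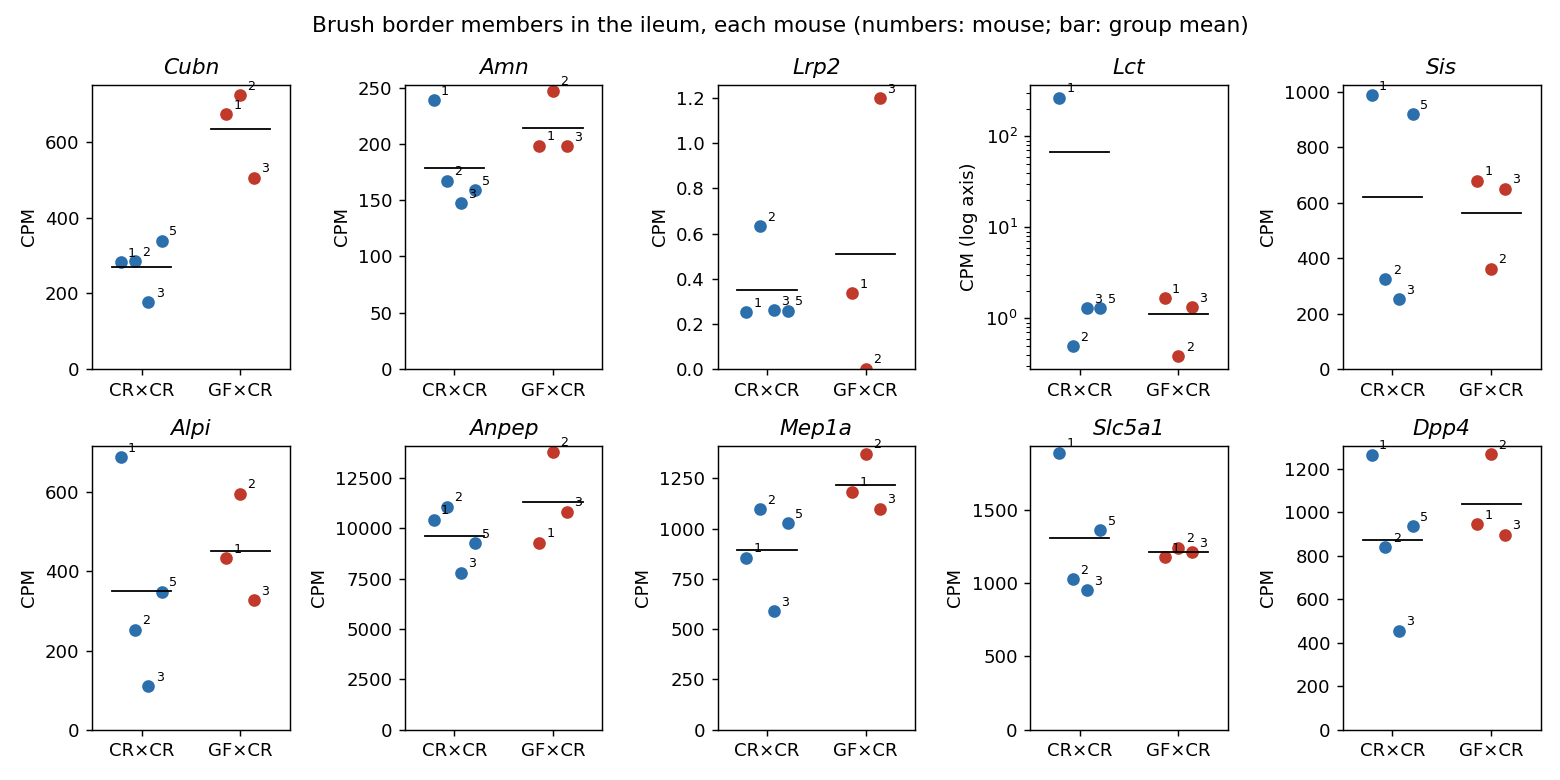
CPM of each member in each of the 7 ileum samples (points, numbered by mouse) with the group mean (bar); the Lct axis is a log axis and the others start at 0. Cubn lies between 506 and 723 CPM in GF×CR mice, above the 176 to 339 CPM of CR×CR mice, and Lct is at 265 CPM in CR×CR mouse 1 and below 2 CPM in the others.

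The position of Cubn relative to the other members was also read within each mouse. The mean log2(CPM + 0.5) of 7 other members (Amn, Sis, Alpi, Anpep, Mep1a, Slc5a1 and Dpp4) was 9.90, 10.06 and 9.84 in GF×CR mice and 10.22, 9.57, 8.98 and 9.87 in CR×CR mice, so the groups overlapped for the members as a whole. The distance from that mean to Cubn, a difference of log2 values, was -0.50, -0.56 and -0.86 in GF×CR mice and -2.08, -1.41, -1.51 and -1.46 in CR×CR mice. Cubn was nearer to the other members in every GF×CR mouse than in any CR×CR mouse. CR×CR mouse 1, which had the highest mean of the other members, had the largest distance. These distances and the ratios to Amn and Vil1 use the same Cubn values as the comparison of the crosses, so they are not separate support. The share of genes that separate the groups in this way was not counted.

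**Figure D2:**
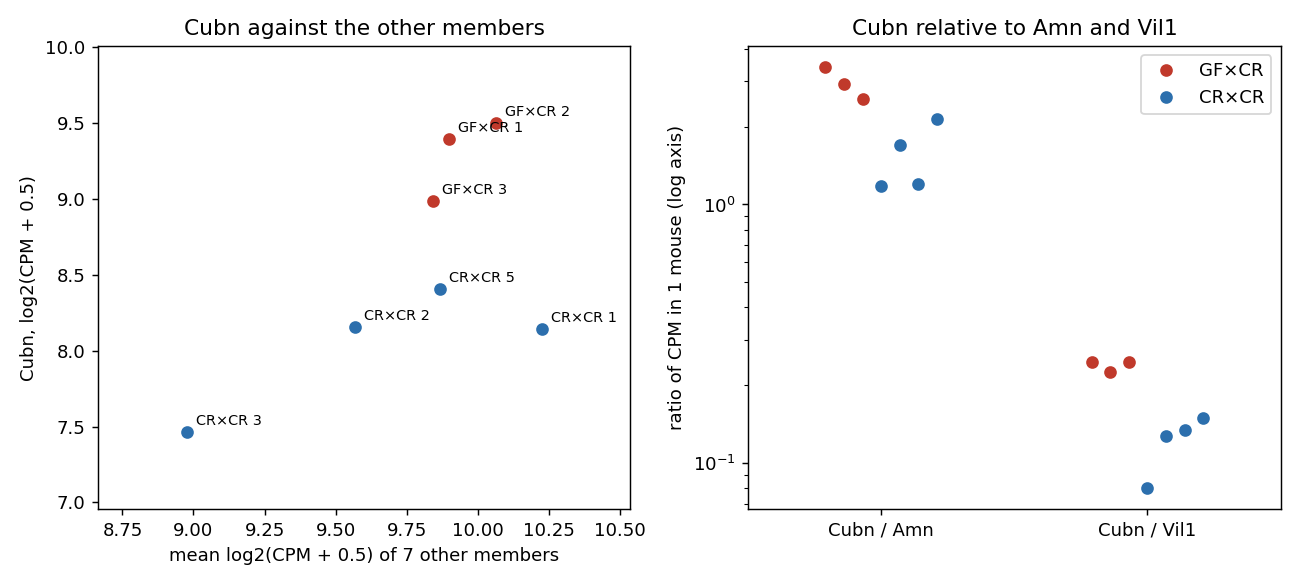
Left, Cubn against the mean of 7 other members, both as log2(CPM + 0.5), 1 point per mouse. Right, the ratio of Cubn to Amn and to Vil1 within each mouse on a log axis; the 3 GF×CR mice (red) lie above the 4 CR×CR mice (blue) in both, at 2.56 to 3.40 against 1.18 to 2.13 for Amn.

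Of the disaccharidases, Lct, which encodes lactase, was all but absent from 6 of the 7 samples and plainly present in 1. It was at 1.67, 0.386 and 1.32 CPM in the GF×CR mice and at 265, 0.491, 1.30 and 1.29 CPM in CR×CR mice 1, 2, 3 and 5. The log2 fold change of -1.83 had a standard error of 1.65 (unadjusted p = 0.295, limma) and was 0.04 without CR×CR mouse 1. The difference between the crosses in Lct therefore rested on that mouse. Sis, which encodes sucrase-isomaltase, the sucrose-splitting enzyme of the weaned gut, was at 680, 362 and 651 CPM in the GF×CR mice and 989, 324, 252 and 920 CPM in the CR×CR mice. It was low in GF×CR mouse 2 and CR×CR mice 2 and 3 and high in the others, with a log2 fold change of 0.06 ± 0.49 (SE, unadjusted p = 0.91, limma). The spread within CR×CR mice, 3.92-fold, was wider than the distance between the group means, whose ratio was 0.908.

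CR×CR mouse 1 also stood apart in several genes that mark position along the gut. Gata4, a transcription factor of the proximal small intestine, was at 76.4 CPM in that mouse and between 0 and 2.58 CPM in the other 6. Apoa4, an apolipoprotein of fat-absorbing enterocytes, was at 3813 CPM there and between 20.8 and 390 CPM elsewhere, and Fabp1, a fatty acid-binding protein of the proximal gut, was at 77.2 CPM against 1.61 to 7.72 CPM. Not every gene of the proximal list went this way. Of its 10 genes tested, 6 were highest in CR×CR mouse 1 and 2 were lowest there: the iron exporter Slc40a1, at 16.8 CPM against 50.9 to 144 CPM in the others, and the desaturase Scd2, at 116 CPM against 176 to 877 CPM. Slc10a2, the bile acid transporter of the ileum, was at 105 CPM in that mouse and at 432 to 1025 CPM in the others. Fabp6, the ileal bile acid-binding protein, was at 1943 CPM there and at 3016 to 10378 CPM in the others. The tissue given in the methods, distal ileum, thus showed its defining genes in every sample, but the sample of CR×CR mouse 1 went against it in part. The sample titles say only intestine. Cubn in that mouse, at 282 CPM, was close to the 285 CPM of CR×CR mouse 2, and without CR×CR mouse 1 the log2 fold change of Cubn was 1.28 (unadjusted p = 0.00102, limma). Of the members tested, 4 (Lct, Sis, Alpi and Slc5a1) were highest in CR×CR mouse 1.

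**Figure D3:**
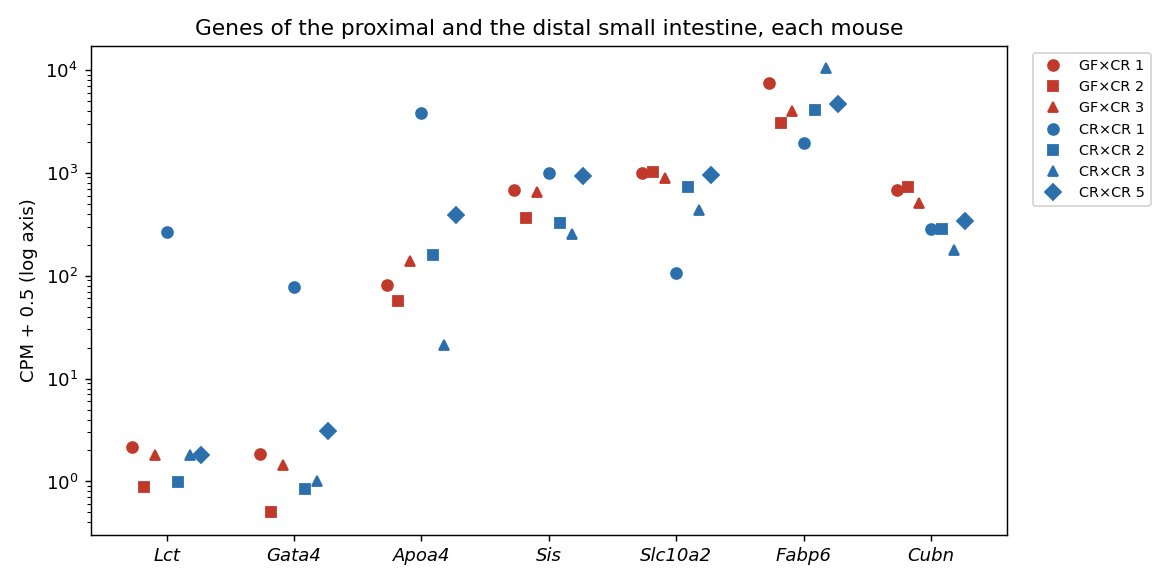
Lct, Gata4, Apoa4 and Sis, and the ileal genes Slc10a2, Fabp6 and Cubn, as CPM + 0.5 on a log axis, 1 point per mouse. CR×CR mouse 1 (blue circle) is highest for Lct (265 CPM), Gata4 (76.4 CPM) and Apoa4 (3813 CPM) and lowest for Slc10a2 (105 CPM) and Fabp6 (1943 CPM), and its Cubn is among those of the other CR×CR mice.

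Among the peptidases, Mep1a came nearest to the pattern of Cubn. Mep1a, the alpha subunit of the metalloprotease meprin, was at 1183, 1373 and 1098 CPM in GF×CR mice and 855, 1097, 590 and 1026 CPM in CR×CR mice. The groups were separated only by the difference between 1098 CPM in GF×CR mouse 3 and 1097 CPM in CR×CR mouse 2. The log2 fold change was 0.48 ± 0.25 (SE, unadjusted p = 0.0859, adjusted p = 0.943, limma), with an exact two-sided permutation p = 0.0571. Without CR×CR mouse 3 it was 0.30 ± 0.20 (SE). Anpep, aminopeptidase N, was at 9275, 13797 and 10825 CPM in GF×CR mice and 10432, 11074, 7786 and 9247 CPM in CR×CR mice, between 0.779% and 1.38% of all reads. The groups overlapped (log2 fold change 0.22 ± 0.35, unadjusted p = 0.543, limma). Dpp4, dipeptidyl peptidase 4, which clips proline-containing peptides and incretin hormones, was at 947, 1266 and 897 CPM in GF×CR mice and 1266, 839, 456 and 936 CPM in CR×CR mice. Its highest values, in GF×CR mouse 2 and CR×CR mouse 1, were nearly the same, and the log2 fold change was 0.32 ± 0.33 (unadjusted p = 0.352, limma). It was 0.04 without CR×CR mouse 3 and 0.53 without CR×CR mouse 1.

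Alpi, the intestinal alkaline phosphatase, which removes phosphate from bacterial lipopolysaccharide, spread more widely than any member but Lct among the 9 tested. It was at 434, 597 and 327 CPM in GF×CR mice and 689, 253, 109 and 348 CPM in CR×CR mice, a 6.31-fold spread within the CR×CR group and a 1.83-fold spread within GF×CR. The log2 fold change of 0.62 ± 0.51 (unadjusted p = 0.255, limma) was 1.04 without CR×CR mouse 1 (unadjusted p = 0.0293), past the study threshold, and 0.16 without CR×CR mouse 3 (unadjusted p = 0.676). Slc5a1, the sodium-glucose cotransporter SGLT1, was at 1178, 1243 and 1213 CPM in GF×CR mice, a 1.06-fold spread. In CR×CR mice it was at 1894, 1028, 953 and 1362 CPM, on both sides of the GF×CR values, with a log2 fold change of -0.06 ± 0.27 (unadjusted p = 0.83, limma).

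Across the 9 members tested, 7 log2 fold changes were above 0 and 2 (Lct and Slc5a1) below, with a median of 0.29 against -0.08 over all genes tested. Of the 14802 genes tested, 6159 were above 0. The summed level of the 10 members was 1.46%, 1.96% and 1.57% of reads in GF×CR mice and 1.69%, 1.51%, 1.05% and 1.43% in CR×CR mice, most of it Anpep. CR×CR mouse 3 was lowest for 8 of the 9 members tested, all but Lct, and GF×CR mouse 2 was highest for 5. Markers of other cells set the same mice apart. The summed level of 9 goblet cell markers was 3728 CPM in GF×CR mouse 2, against 8818 to 11843 CPM in the others. The summed level of 8 smooth muscle markers was 7334 CPM in CR×CR mouse 3, against 702 to 5078 CPM in the others. The summed level of 9 Paneth cell markers was 2768 CPM there, against 290.0 to 745 CPM in the others. The part of these cells in the members' levels was not tested beyond fits with 1 added term: with the smooth muscle level as a covariate the log2 fold change of Cubn was 1.07 ± 0.24 (unadjusted p = 0.00198, limma). The median over the members fell to 0.15 in that fit, with 6 log2 fold changes above 0 and 3 below. Alpi was at 0.15, Dpp4 at 0.09 and Sis at -0.28 there. Without CR×CR mice 1 and 3 together, Cubn had a log2 fold change of 1.01 ± 0.22 (unadjusted p = 0.00165) and Mep1a of 0.19 ± 0.20 (unadjusted p = 0.364, limma).

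Lymphoid tissue was uneven among the samples. The summed level of 7 B cell markers was 285, 18.1 and 724 CPM in GF×CR mice 1, 2 and 3 and 7.04, 11.8, 14.6 and 911 CPM in CR×CR mice 1, 2, 3 and 5. The part of lymphoid tissue in the members' levels was not tested beyond 1 added term: with the B cell level as a covariate the log2 fold change of Cubn was 1.20 ± 0.29 (unadjusted p = 0.0027, limma). The median over the members was 0.35 in that fit, with 6 log2 fold changes above 0 and 3 below, and Sis was at -0.29.

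**Figure D4:**
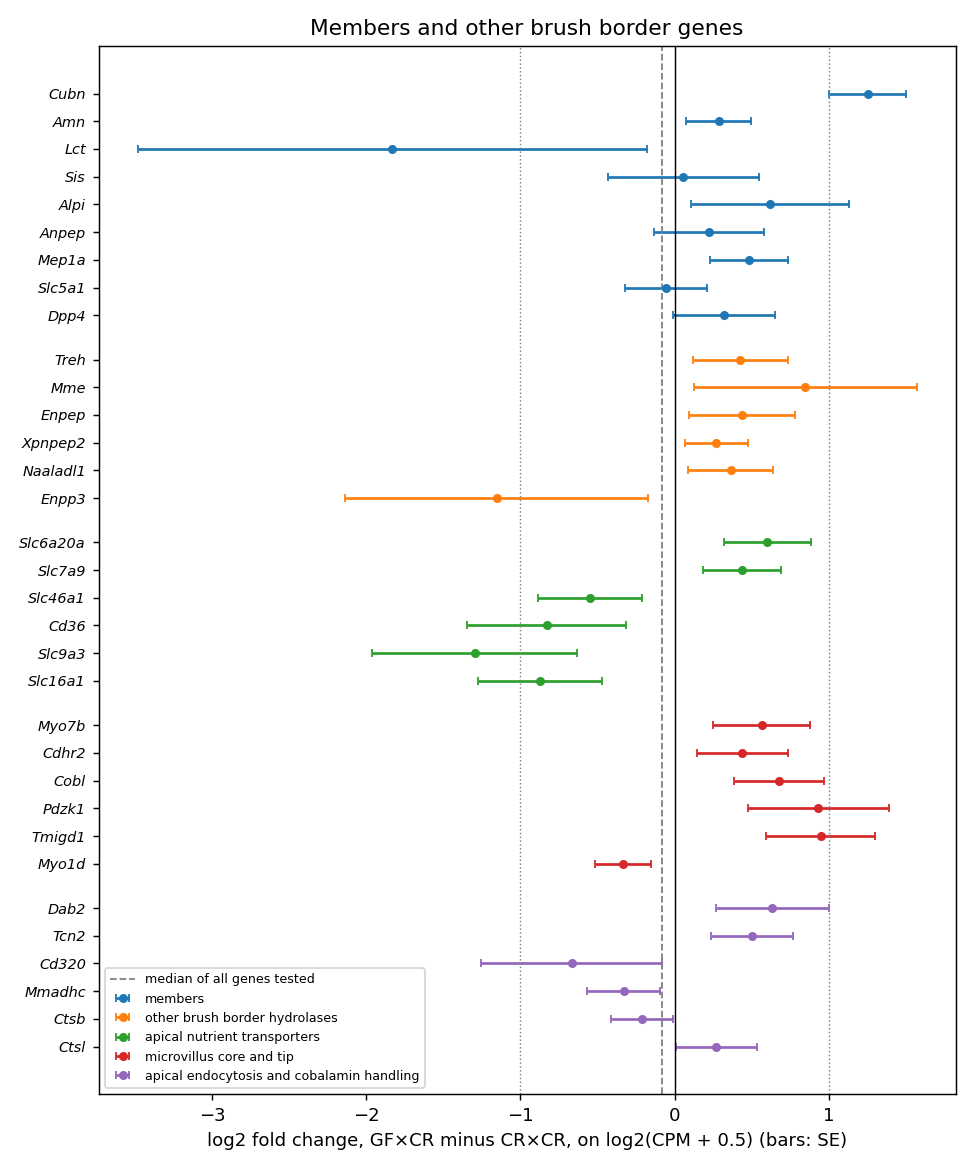
Log2 fold changes (GF×CR minus CR×CR, on log2(CPM + 0.5)) with their standard errors for the 9 members tested and for up to 6 genes of smallest p from each of 4 other brush border lists. The dashed line is the median of all genes tested (-0.08) and the dotted lines mark a log2 fold change of 1 in either direction; Cubn, at 1.25, is the only gene shown beyond the upper one.

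The other brush border genes gave few differences past an unadjusted p under 0.05, for which the background was 1.54% of all genes tested for higher and 2.96% for lower. Of 15 other brush border hydrolases tested, none passed in either direction (median log2 fold change 0.21). The neutral endopeptidase Mme was at 0.85 ± 0.72 and the trehalose-splitting enzyme Treh at 0.43 ± 0.31 (log2 fold change ± SE). Of 19 apical nutrient transporters, none passed (median 0.16). The proline and imino acid transporter Slc6a20a was at 0.60 ± 0.28 and Slc16a1 at -0.88 ± 0.40. Slc9a3, the sodium-proton exchanger NHE3, was at -1.30 ± 0.67. Its levels were 16.1, 20.5 and 28.6 CPM in GF×CR mice and 244, 29.8, 34.9 and 29.9 CPM in CR×CR mice 1, 2, 3 and 5, without overlap. Of 20 microvillus genes 2 passed, both higher. The log2 fold change was above 0 for 16 of the 20 (median 0.21), against 6159 of the 14802 genes tested. GF×CR mouse 2 was highest for 11 of the 20 and CR×CR mouse 3 lowest for 14. Tmigd1, an adhesion protein of the microvillus membrane, was at 2181, 2420 and 2151 CPM in GF×CR mice and 654, 1641, 947 and 1814 CPM in CR×CR mice, with no overlap (log2 fold change 0.95 ± 0.35, unadjusted p = 0.0232, limma). It was lowest in CR×CR mouse 1. Myo1d was without overlap in the other direction, at 227, 250 and 243 CPM in GF×CR mice and 258, 372, 310 and 281 CPM in CR×CR mice. Its log2 fold change was -0.33 ± 0.18 (unadjusted p = 0.0967, limma). Cobl, the actin nucleator cordon-bleu, was at 0.68 ± 0.29 (unadjusted p = 0.0433, limma). Of 19 genes of apical endocytosis and cobalamin handling none passed (median -0.05), with 8 log2 fold changes above 0 and 11 below. Tcn2, the blood carrier transcobalamin, was at 0.50 ± 0.27 and Dab2, the endocytic adaptor that binds megalin, at 0.63 ± 0.37. Ctsl was at 0.27 ± 0.26, whereas Cd320 was at -0.67 ± 0.59, Mmadhc at -0.33 ± 0.24 and Ctsb at -0.21 ± 0.20.

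Other lists of the tissue were read by the same rule. Of 12 genes of all epithelium 3 passed an unadjusted p under 0.05, all lower in GF×CR mice (median log2 fold change -0.29): Krt19, a keratin, at -1.02 ± 0.38, Cldn3, a tight junction claudin, at -0.42 ± 0.18, and Elf3. Of 9 Paneth cell genes 4 passed, all lower (median -1.28), among them the matrix protease gene Mmp7 at -1.88 ± 0.52. None of 8 smooth muscle genes (median -0.90), none of 7 B cell genes (median 2.06) and neither of the 2 Y-linked genes tested passed. The ileum list of 10 genes, which holds Mep1a, had no gene past that p (median 0.14), and the proximal small intestine list had none of 10 (median -0.21). Of 6 colon genes tested 2 passed, both lower in GF×CR mice (median -0.88): the glycosyltransferase gene B3galt5, at -2.22 ± 0.46 without overlap (unadjusted p = 0.000722), and Car4, a carbonic anhydrase, at -1.43 ± 0.46 (unadjusted p = 0.0115, limma). Of 9 goblet cell genes 1 passed, Agr2, a protein needed for mucin folding, at -1.19 ± 0.39 (unadjusted p = 0.0133, limma). All 9 log2 fold changes were below 0 (median -0.50), as were 8643 of the 14802 genes tested. Each of the 9 genes was lowest in GF×CR mouse 2.

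The genes most like the members were found by the Pearson correlation of log2(CPM + 0.5) over the 7 mice with the mean of the standardized values of the 9 members tested. The 5 highest were Pls1 (r = 0.999), which encodes the microvillus actin-bundling protein plastin 1, Optn (0.996), Mpp1 (0.994), Aldh3a2 (0.993) and 2010106E10Rik (0.992). Pls1 was at 1400, 1616 and 1393 CPM in GF×CR mice and 1795, 1124, 763 and 1275 CPM in CR×CR mice, highest in CR×CR mouse 1 and lowest in CR×CR mouse 3. These values describe the order of 7 mice and were chosen as the highest of all genes tested.

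Genes of enterocyte position along the villus and of maturity gave a mixed picture. Of the villus bottom list, 5 of 7 genes tested passed an unadjusted p under 0.05 and all 7 were lower in every GF×CR mouse than in any CR×CR mouse, where 2.87% of all genes tested were lower without overlap. Reg3a, an antimicrobial lectin, had a log2 fold change of -1.04 ± 0.22 (unadjusted p = 0.000873) and Lypd8, which keeps flagellated bacteria off the epithelium, of -1.06 ± 0.30 (unadjusted p = 0.00582, limma). Of 13 villus tip genes 1 passed, the protease gene Tmprss2 (-1.16 ± 0.26, unadjusted p = 0.00118, limma), and of 9 villus middle genes none. In the suckling and adult enterocyte lists none of 6 and none of 6 genes tested passed. In the suckling list 4 log2 fold changes were above 0 and 2 below, and in the adult list 5 and 1. Prdm1, which encodes the repressor BLIMP1 of suckling enterocytes, was at 0.32 ± 0.40, whereas Glb1 of the same list was at -0.51 ± 0.27. Maf, a transcription factor of mature enterocytes, was at 0.60 ± 0.32, and Arg2 of the adult list at -0.26 ± 0.44. Of 20 enterocyte transcription factors 1 passed: Elf3, an epithelial ETS factor, was at 239, 376 and 435 CPM in GF×CR mice and 577, 631, 622 and 513 CPM in CR×CR mice (log2 fold change -0.78 ± 0.23, unadjusted p = 0.00687, limma).

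The members' levels in the other tissues of the study set the ileum values in place, without a test, since the tables were normalized separately. Skin and sebaceous gland libraries were also made from total RNA depleted of ribosomal RNA, those of sebaceous gland from fixed tissue, whereas ileum libraries were made from poly(A) RNA. Group medians of Cubn were 283 and 673 CPM in ileum, 0 CPM in liver, 2.90 to 6.20 CPM in skin and 1.32 to 4.40 CPM in sebaceous gland. Sis, Alpi and Mep1a were listed at 0 in every liver sample and had group medians up to 0.634 CPM in skin and sebaceous gland. Anpep was found in all tissues, with group medians of 125 to 139 CPM in liver, 37.1 to 66.3 CPM in skin and 108 to 209 CPM in sebaceous gland. Dpp4 was at 42.3 and 63.9 CPM in liver and 53.5 to 149.9 CPM in skin. In liver of the same crosses Dpp4 ran from 62.8 to 76.9 CPM in 3 GF×CR mice and from 39.95 to 62.1 CPM in 4 CR×CR mice. Anpep overlapped there, at 116 to 135 CPM in GF×CR and 111 to 154 CPM in CR×CR mice. Amn, Lct, Lrp2 and Slc5a1, all under 1 CPM in liver, overlapped too. The difference in liver Dpp4 was not tested, and the share of liver genes without overlap was not counted. Lrp2, near 0 in ileum, had group medians of 5.19 to 26.2 CPM in sebaceous gland. In single embryos, measured as TPM (transcript abundance scaled to transcript length and library total), group medians of Lrp2 were 0.04 to 0.62 TPM at the 4-cell stage and 12.6 to 18.3 TPM in morulae, and those of Cubn were 0 to 0.36 TPM and 1.28 to 4.44 TPM. For Lrp2, Cubn, Dpp4 and Lct the lowest morula median was above the highest 4-cell median. Group medians of Dpp4 were 0 to 1.44 TPM at the 4-cell stage and 4.17 to 8.62 TPM in morulae. Those of Lct were 0 TPM and 0.12 to 0.885 TPM. Anpep went the other way, with 2.61 to 7.81 TPM at the 4-cell stage and 0.23 to 0.6 TPM in morulae. Amn overlapped between the stages, with group medians of 4 to 10.2 TPM at the 4-cell stage and 3.19 to 6.62 TPM in morulae. Sis was at a group median of 0 TPM at both stages.

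**Figure D5:**
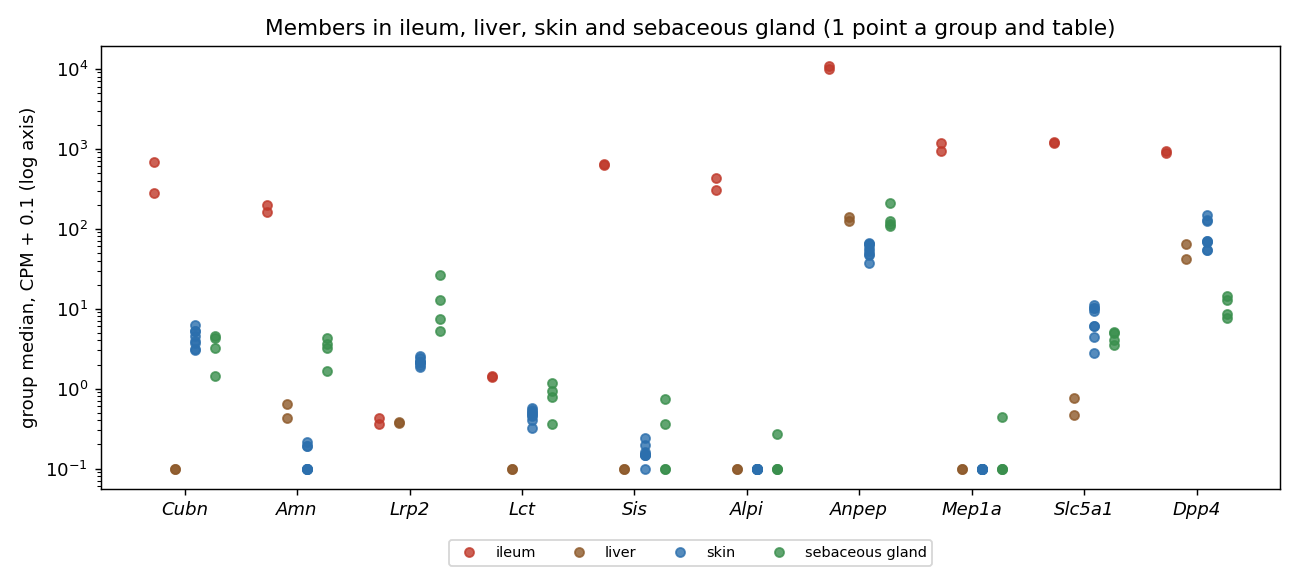
Group medians of the members in ileum, liver, skin and sebaceous gland, as CPM + 0.1 on a log axis, with 1 point for each group and table. Of the 10 members, 9 have their highest group median in ileum, Lct only narrowly (1.32 CPM against 1.06 CPM in sebaceous gland, both low). Lrp2, with 0.259 and 0.335 CPM in ileum, is highest in sebaceous gland at 26.2 CPM.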

How the data were processed

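Libraries of F1 distal ileum were poly(A) selected and stranded, and were sequenced single-end. The authors used Kallisto with an Ensembl annotation, in R 4.2, and deposited CPM values, which count-based tests do not accept. Their later filter, trimmed-mean scaling and voom step are not in these values. The deposited CPM of liver, skin and sebaceous gland and the embryo values, made by the authors with RSEM on mm10 and taken as TPM, were used for levels only. Versions of Kallisto and RSEM are not given in the sources used here. Liver values, named TPM in the methods, were taken as CPM. In the skin tables CR×CR mice stand in more than 1 table.

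From the ileum CPM, log2(CPM + 0.5) was fitted with limma 3.58.1 in R 4.3.3 (trend of variance on mean) for genes that reached 1 CPM in 3 or more mice, with Benjamini-Hochberg adjustment over all genes tested. Fold changes on this scale understate those of low genes. Single members were also tested by exact permutation over mice (two-sided, the smaller tail doubled). The step between low values gave an approximate depth of 2.59 to 14.2 M reads, and since only 42.4% to 73.0% of values lay within 0.02 of a whole number of steps, reads were not recovered. Nothing in the labels says whether mice shared a litter or cage, so p-values measure the spread between these mice. Same-numbered mice of the crosses deviated together (correlation of deviations 0.21 to 0.27 over 3 pairs). By a rule of every pair above 0.1, the numbers were used as a block in an alternative fit. This pairing rests on the values and not on the labels. The main fit and the permutation tests did not use it. Pairs of different numbers ran from -0.49 to 0.29, and some of them were above 0.1 as well. The highest was GF×CR mouse 3 with CR×CR mouse 5, so the pairing is weakly grounded. The test was checked on simulated data drawn with the spread of these samples: of 100 genes changed by a log2 fold change of 2 among 14802, 92% passed the study threshold and 34% the adjusted test, and of 100 changed by 1, 49% and 4%.

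Members and gene lists were chosen with earlier results of these data known. Beyond the members, the text names up to 4 genes of smallest p per list (6 for brush border, endocytosis and transcription factor lists) and the 5 most like the members. Vil1, Fabp1 and Fabp6 were added after their values were seen. Alternatives were pseudocounts of 0.1 and 1, no filter, a filter at 5 CPM, median ratio scaling, quantile normalization, levels relative to the epithelium list, array quality weights, a Y-linked covariate, the replicate block and leaving out each mouse; B cell and smooth muscle covariates and leaving out CR×CR mice 1 and 3 together were added after the data were seen. Results for 1 gene are not reported here. Promoters came from RefSeq GRCm38.p6, matched by symbol for all 10 members.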

Additional observations from a re-analysis of the deposited data

Results flagged for a closer look

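Among 115 genes named by list, 20 had 1 of the 4 CR×CR mice far from the other 3. The gap used is one that chance gives in about 1 in 20 groups of normally distributed values. It was applied to CPM without a log, and to genes named in part by smallest p. The count of 20 among 115 therefore cannot be compared with that rate. CR×CR mouse 1 was the outlying one for Lct (265 CPM, others 0.491 to 1.30), Gata4 (76.4 CPM), Apoa4 (3813 CPM), Enpp3 (93.9 CPM), Slc9a3 (244 CPM), Arg2 (141 CPM), Slc7a8 (95.9 CPM) and Chga (120.0 CPM), all high, and for Axin2 (53.5 CPM), which was low. CR×CR mouse 3 was the outlying one for Defa22 (399 CPM), Itln1 (590 CPM, others 70.1 to 117), Car1 (27.6 CPM) and Ttr (19.01 CPM), all high, and for Lamp2 (91.4 CPM), Cdh1 (635 CPM) and Fcgbp (2687 CPM), all low. CR×CR mouse 5 was the outlying one for the lymphocyte genes Ms4a1 (141 CPM, others 0.251 to 0.918), Cr2 (85.8 CPM), Fcer2a (62.4 CPM) and Cd4 (21.1 CPM), all high. Among the members only Lct was outlying in this way, and the GF×CR group, with 3 mice, was too small for the rule. What set these samples apart was not tested.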

How the results depend on the processing

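Cubn kept a log2 fold change between 1.01 and 1.56 and stayed past the study threshold under all 20 alternatives run. Its adjusted p ran from 0.0208 (array quality weights, log2 fold change 1.22) to 1.00 and was under 0.05 only with those weights. The median over the members ran from 0.12 to 0.60 and stayed above 0. Alpi passed the study threshold under 1 alternative, without CR×CR mouse 1. Sis and Slc5a1 changed sign under 7 alternatives each, Lct under 3 and Anpep under 1, none of them past the threshold. Levels relative to the epithelium list moved the median of all genes from -0.08 to 0.23 and the study threshold calls from 281, of which 43.4% were higher, to 440, of which 89.1% were higher, so the balance of directions depends on the scaling. The calls numbered 168 with a filter at 5 CPM, 1653 with array quality weights, 727 with the replicate block and 186 with the smooth muscle covariate, and 160 to 884 when 1 mouse was left out: 160 without GF×CR mouse 1, 884 without GF×CR mouse 3, 569 without CR×CR mouse 1 and 179 without CR×CR mouse 2. Genes at an adjusted p under 0.05 numbered 1348 with array quality weights and 1 with the replicate block, and 0 under the other alternatives, each left-out mouse included. The cause of these shifts was not tested. The replicate block changed no member's call. At 2.59 M reads in the shallowest library, members under 1 CPM rest on a few reads.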
